A study of Mus musculus with 10 samples.

Results

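Ribosomal proteins make up the protein part of both kinds of ribosome in a mouse cell: the cytosolic ribosome (genes named Rpl for the large and Rps for the small subunit) and the mitochondrial ribosome (Mrpl and Mrps). The genes described here were all those on the array whose probe sets carried a single symbol of one of these patterns, and of several probe sets for a gene the one brightest on average was used. There were 121 such genes of the 18194 genes with a single symbol, 45 of them cytosolic and 76 mitochondrial. Ribosomal proteins that the annotation gives under several symbols, such as Rpl3 and Rpl10, are not analysed here. The array was an Affymetrix mouse genome expression array, on which a probe set is a group of short probes for one transcript.

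The cells were Lewis lung carcinoma (LLC) cells, a lung tumour line of C57BL/6 mice, in 2 forms: the TDAG8 line, which stably expressed TDAG8 (gene symbol Gpr65), a G protein-coupled receptor that senses protons, and the control line, which stably carried the vector without it. Both lines were kept in serum-free medium with albumin at pH 7.4 for 12 h and were then given the same medium at pH 6.4 or at pH 7.4 for 4 h or 12 h, so that serum starvation is common to all groups. Each line was also sampled before this treatment. There was 1 array for each line and condition, 10 in all, and each array received equal amounts of RNA from 4 independent cultures, so no group had a replicate array and the spread between cultures is not visible. The labels do not say whether each line was 1 clone.

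The cell type and the receptor were looked up first. Krt8, a keratin of epithelial cells, and Vim, a filament gene of mesenchymal cells, read between 1242 and 2647.9 and between 6139.9 and 9227 in deposited signal, while the epithelial gene Cdh1 did not exceed 5.3, and markers of lung epithelium stayed at or below 28.6, of leukocytes at or below 14.3 and of endothelium at or below 14.5. Of the fibroblast markers, Col3a1 read between 4432.7 and 6730.4, whereas Col1a1 did not exceed 8.1. The Gpr65 probe set read between 0.3 and 5.3 on all 10 arrays of both lines, so the array does not check which line is which. Signal is a linear measure that depends on each probe set, so differences were tested only between arrays for the same gene. Signals of different genes are set side by side only to describe where they lie in the range. Precision is limited by the small number of arrays.

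Cytosolic ribosomal protein genes are transcribed at high rates in growing cells, and their mRNAs often begin with a C followed by pyrimidines, the 5′ terminal oligopyrimidine tract, through which their translation is switched as a group by growth signals. Mitochondrial ribosomes translate the few proteins encoded in mitochondrial DNA, all of them parts of the respiratory machinery. Their protein subunits are encoded in the nucleus, made in the cytosol and imported.

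The windows around the transcription start show how the groups differ in sequence. Of the 121 genes, 106 were matched by symbol to RefSeq's promoter table (GRCm38.p6), which holds 250 bases before and 50 after each start. The listed start was a C followed by 4 bases that are each C or T in 8 of 39 cytosolic genes (20.5%), in 0 of 67 mitochondrial genes and in 2.32% of the 9862 tested genes in that table. The first 4 windows below are cytosolic genes of that kind, with the run of C and T around the start in capitals. The last 4 are mitochondrial genes on which the results turn, with the first transcribed base in capitals. Each window runs from 30 bases before the start to 20 bases from it.

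Rps27, chr3:90213629-90213678, minus strand: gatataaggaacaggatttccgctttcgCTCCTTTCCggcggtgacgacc
Rps6, chr4:86857348-86857397, minus strand: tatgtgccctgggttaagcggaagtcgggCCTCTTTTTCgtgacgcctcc
Rpl38, chr11:114668550-114668599, plus strand: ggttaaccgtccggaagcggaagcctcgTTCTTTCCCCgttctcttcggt
Rpl35, chr2:39005112-39005161, minus strand: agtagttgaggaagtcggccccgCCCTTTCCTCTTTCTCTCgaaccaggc
Mrps31, chr8:22411310-22411359, plus strand: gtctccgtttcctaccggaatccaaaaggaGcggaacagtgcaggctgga
Mrpl47, chr3:32736736-32736785, minus strand: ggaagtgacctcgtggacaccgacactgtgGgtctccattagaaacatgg
Mrpl57, chr14:57826209-57826258, plus strand: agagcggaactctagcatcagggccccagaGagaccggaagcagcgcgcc
Mrps6, chr16:92058306-92058355, plus strand: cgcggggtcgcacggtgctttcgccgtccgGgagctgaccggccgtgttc

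The 4 cytosolic windows, chosen for that start, place it inside a run of 9 to 18 pyrimidines. The 4 mitochondrial genes have a G as their first transcribed base. Of the cytosolic genes described further on, Rps25 starts at an A and Rpl12 at a G. Anywhere from 5 bases before to 10 after the start, a C followed by 4 such bases was more frequent. It was found there in 48.7% of cytosolic, 22.4% of mitochondrial and 20.2% of tested genes. In the 300 bases, searched on both strands, the ETS motif CCGGAAG was found in 48.7% of the cytosolic, 35.8% of the mitochondrial and 18.2% of the tested genes. The YY1 motif AAGATGGC was found in 5.13%, 17.9% and 4.77%, the NRF1 motif in 7.69%, 17.9% and 10.5%, and the E-box CACGTG, the letters bound by Myc, in 7.69%, 7.46% and 10.1%. A match is a description of these letters and not a binding site. Among the 15 matched mitochondrial genes that were higher at pH 6.4 at 12 h (described further on), 6 held the ETS motif (40%), 1 the YY1 motif (6.67%), 3 the NRF1 motif (20%) and 0 the E-box.

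The cytosolic and mitochondrial groups occupied different parts of the signal range. Of the 45 cytosolic genes, 33 had a mean deposited signal of 2000 or more, with single values between 2209 and 9550.3, while the brightest probe set on an array read between 6940.1 and 10516.6. These are called the bright cytosolic genes. A further 8 were dimmer (Rpl12, Rpl14, Rpl27a, Rpl37, Rpl39, Rps25, Rps27 and Rps6), with values between 26.4 and 1089.2. The remaining 4 (Rpl39l, Rpl3l, Rps16 and Rps4l) read between 0.2 and 9.3 and were not tested. Rpl39l and Rpl3l are paralogs of Rpl39 and Rpl3 known from testis and muscle, but the only Rps16 probe set also read at most 4, on a gene that every ribosome needs. All 76 mitochondrial genes passed the filter, with values between 53.7 and 2008.9. Of the 33 bright probe sets, 30 carried one of Affymetrix's suffixes x, s or a, which mark probes shared with other transcripts or with several transcripts of the gene, against 1 of the 8 dimmer ones and 31 of 76 mitochondrial ones.

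**Figure D1:**
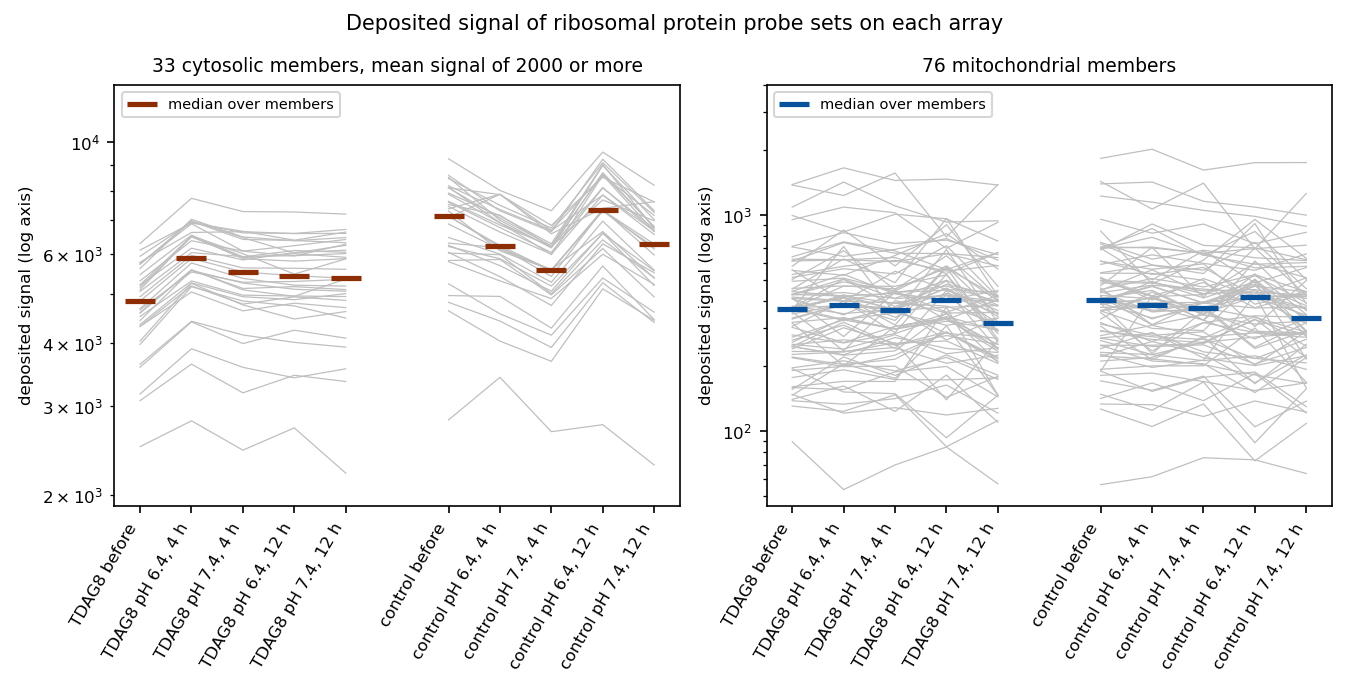
Deposited signal (log axis) of the 33 bright cytosolic genes (left panel) and the 76 mitochondrial genes (right panel) on the 10 arrays, TDAG8 line first. Grey lines join 1 gene's values within a line, and thick bars are the median over genes. The bright cytosolic genes have control-line medians of 7130.3 before treatment and 7349.1 at pH 6.4 for 12 h, whereas the mitochondrial medians stay between 316.2 and 417.45.

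The bright cytosolic genes sit at the top of the range, and how much they vary differs with the scaling of the arrays. In the deposited values their log2 signal spanned a median of 0.63 over the 10 arrays, and after quantile normalisation, which gives every array the same distribution, a median of 0.14. The mitochondrial genes spanned 0.66 and 0.68, which are similar spans, although single calls in that group also moved with the scaling. Both scalings are therefore given for the cytosolic group, and the quantile-normalised values are the main ones. The tests used log2(signal + 2.4) and limma's moderated test with Benjamini-Hochberg adjustment over all 12161 genes with a mean log2 value of at least 3.17, called at an adjusted p under 0.05. Matched differences between arrays (5 pairs for line, 4 for pH, 4 for time) stood in for replicates.

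The line comparison asks what the receptor changed irrespective of pH. As deposited, all 33 bright cytosolic genes averaged lower in the TDAG8 line, with a median log2 difference of -0.26, and 0 of them passed the test. In limma 29 of them had an unadjusted p under 0.05, against 2593 of all 12159 genes tested. On these values 0.905% of all tested genes passed, 0.617% as higher and 0.288% as lower. Their median signal on the TDAG8 arrays was 4845.5 before treatment, 5881.9 and 5529.5 at pH 6.4 and pH 7.4 for 4 h, and 5436.4 and 5373.3 at pH 6.4 and pH 7.4 for 12 h. On the control arrays it was 7130.3 before treatment, 6236.9 and 5587.3 at 4 h, and 7349.1 and 6279.4 at 12 h in the same order. The control arrays before treatment and at pH 6.4 for 12 h stood highest, and the other 3 control arrays lay closer to the TDAG8 arrays.

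The size of this difference thus varied by condition. The median log2 difference of the bright cytosolic genes, TDAG8 minus control as deposited, was -0.54 before treatment, -0.13 and -0.05 at pH 6.4 and pH 7.4 for 4 h, and -0.43 and -0.18 at pH 6.4 and pH 7.4 for 12 h. The 281 other genes with a mean signal of 2000 or more also lay lower, 239 of them with a negative difference, at a median of -0.14 over the 5 conditions, -0.27 before treatment and -0.21 at pH 6.4 for 12 h. The median over all tested genes was 0.01. After quantile normalisation the difference of the bright cytosolic genes was -0.02, with 21 negative and 12 positive values.

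**Figure D2:**
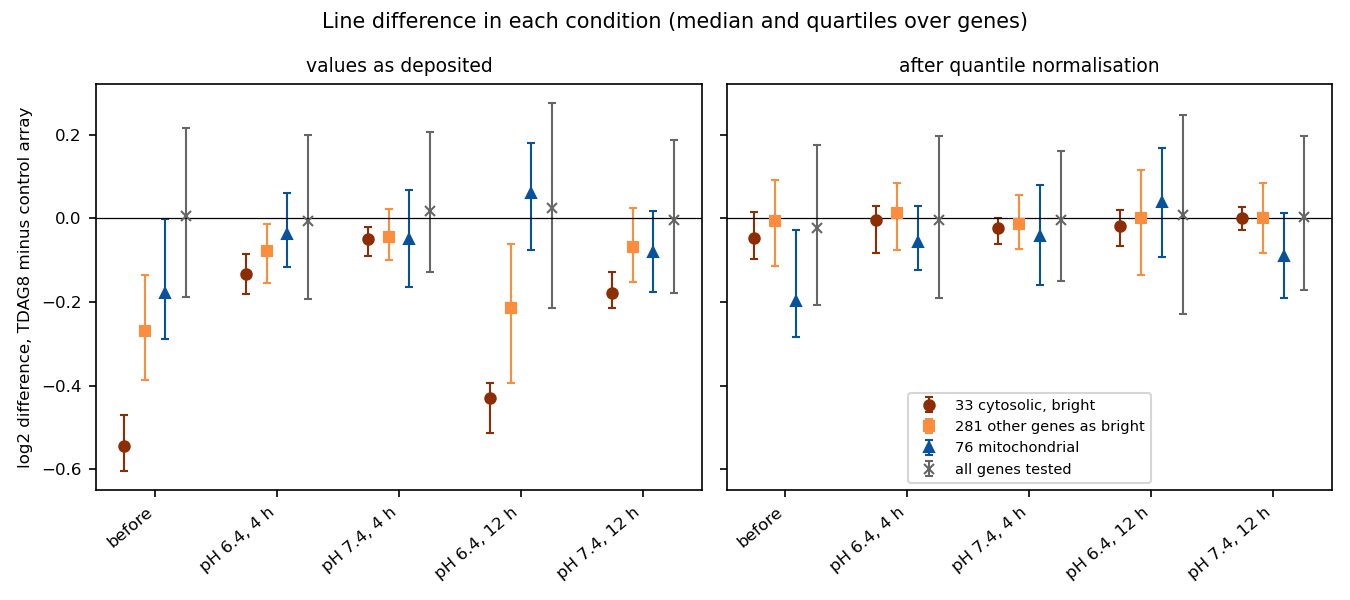
Median and quartiles over genes of the log2 difference between the TDAG8 and the control array of each condition (x axis), as deposited (left) and after quantile normalisation (right), for 33 bright cytosolic genes, 281 other genes as bright, 76 mitochondrial genes and all genes tested. As deposited the bright cytosolic median is -0.54 before treatment and -0.43 at pH 6.4 for 12 h, and after quantile normalisation it lies near 0 in every condition.

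The cytosolic probe sets were also compared by brightness. Before treatment, 55 of 55 cytosolic probe sets with a mean signal of 4000 or more were lower in the TDAG8 line as deposited (median -0.52), as were 10 of 12 between 1000 and 4000 (median -0.24) and 8 of 14 between 50 and 1000 (median -0.07). At pH 6.4 for 12 h the medians of these 3 sets were -0.43, -0.06 and -0.22, with 55, 9 and 8 probe sets negative, so the brightest were again the lowest but the others did not keep their order. Probe sets of the same gene differed too. For Rps9, a small-subunit protein, the brighter probe set read 3170.3 on the TDAG8 and 4814.3 on the control array before treatment, and the dimmer one read 2677.4 and 2621.9. At pH 6.4 for 12 h the brighter one read 3412.9 on the TDAG8 and 5264.4 on the control array, and the dimmer one 2887.4 and 2666.3. Rpl27, of the large subunit, behaved alike: its brightest probe set read 4512.8 on the TDAG8 and 6208.6 on the control array before treatment, and its second 2744.3 and 2657.4. A lower level of cytosolic ribosomal protein mRNA in the TDAG8 line and an effect of the signal range on these arrays cannot be told apart from these values.

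**Figure D3:**
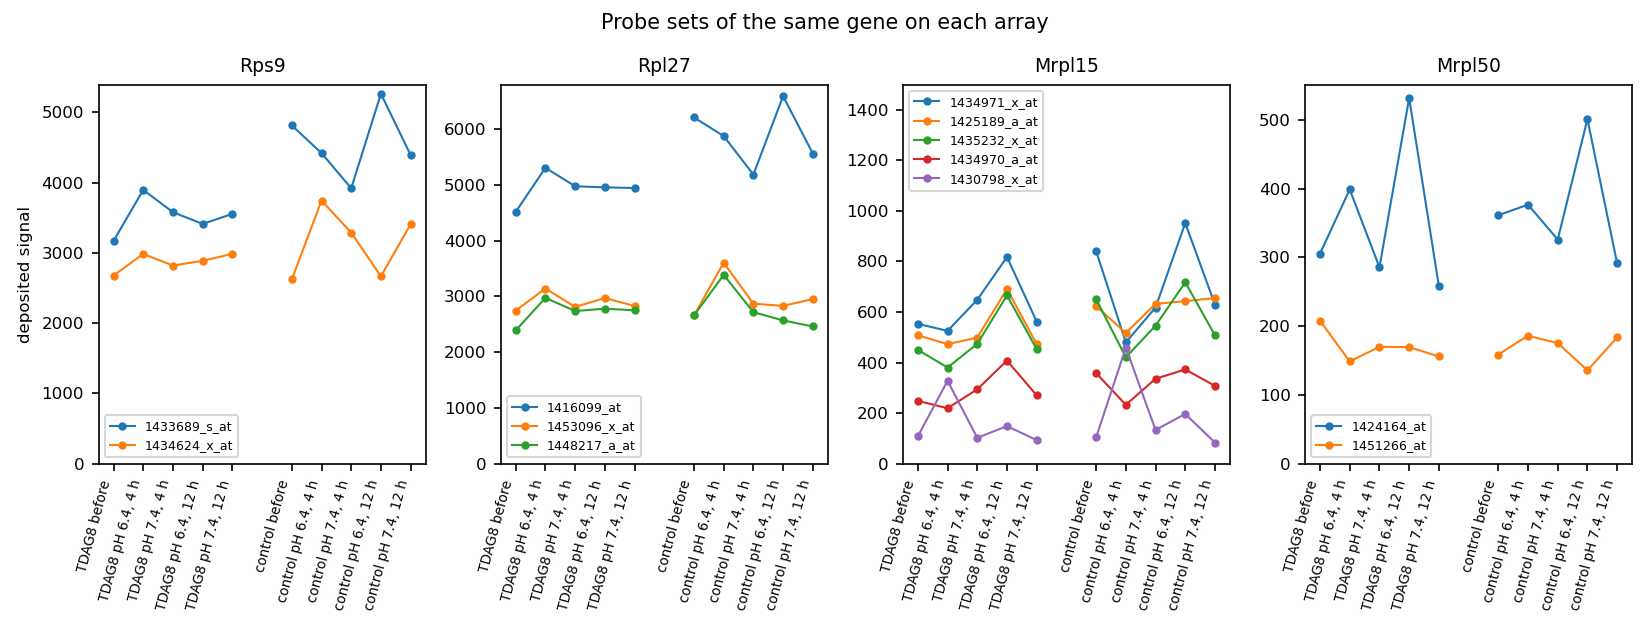
Deposited signal on each array of the probe sets, with a mean of at least 50, of Rps9, Rpl27, Mrpl15 and Mrpl50; the axes start at 0. For Rps9 and Rpl27 only the brightest probe set is high on the control arrays before treatment and at pH 6.4 for 12 h, and for Mrpl50 the dimmer probe set lacks the peaks of 531.6 and 501 at pH 6.4 for 12 h.

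No cytosolic and no mitochondrial gene passed the line test, where 1.23% of all tested genes did (149 genes, 0.691% higher and 0.534% lower). In limma 3 of 41 cytosolic and 12 of 76 mitochondrial genes had an unadjusted p under 0.05, against 2528 of all 12161. The mitochondrial group had a median log2 difference of -0.07, with 55 of 76 genes negative, against -0.0024 over all genes. It was most negative before treatment, where 62 of 76 were negative with a median of -0.20, while at pH 6.4 for 12 h the median was 0.04. Mrpl24 of the large subunit had the lowest adjusted p among the named genes, with signals of 371.7, 503.5, 375.9, 477 and 421.3 on the TDAG8 arrays (before, pH 6.4 and pH 7.4 for 4 h, pH 6.4 and pH 7.4 for 12 h) and 446.9, 557.1, 428.3, 599.4 and 512 on the control arrays in that order. It was lower in the TDAG8 line in all 5 pairs, at a log2 difference of -0.26 (SE 0.06, adjusted p = 0.094). Mrpl44, which resembles an RNase, differed by -0.31 (SE 0.07, adjusted p = 0.10), Mrps31 of the small subunit by -0.29 (SE 0.08, adjusted p = 0.13) and Rps25 by -0.26 (SE 0.08, adjusted p = 0.14), each lower in all 5 pairs and none passing.

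The pH comparison asks what acidic medium changed in both lines and at both times. Over the 4 pairs, 10.2% of all tested genes were called (4.51% higher and 5.64% lower at pH 6.4). Of the mitochondrial genes, 2 rose (Mrpl57 and Mrps5) and 1 fell (Mrps6), and of the cytosolic genes only Rps25 rose. The share called in each group, 3 of 76 and 1 of 41, lay below that over all genes. For the cytosolic group this is not read as a result about the genes. Of its 41 genes 33 are the bright ones, which spanned a median of only 0.14 over the arrays after this scaling.

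Rps25, a small-subunit protein that some viral RNAs need to start translation, had signals at pH 6.4 of 337.8 (4 h) and 398.9 (12 h) on TDAG8 arrays, where pH 7.4 gave 271.5 and 270.4. On control arrays pH 6.4 gave 413.1 and 549.6, and pH 7.4 gave 286.1 and 312.6. All 4 acid values lay above all 4 at pH 7.4. After quantile normalisation 3 of 41 cytosolic genes (7.32%) lay above in this way and 0 lay below, against 12.6% and 12.4% of all genes. The log2 difference of Rps25 was 0.57 (SE 0.12, adjusted p = 0.047). With the values as deposited it was 0.55 (adjusted p = 0.058), which no longer passed. Rpl12, a large-subunit protein at the base of the stalk that recruits translation factors, had 264.6 (4 h) and 162 (12 h) at pH 6.4 on TDAG8 arrays, where pH 7.4 gave 132.2 and 134.5. On control arrays pH 6.4 gave 256.3 and 239.2, and pH 7.4 gave 175.7 and 134.5. Its difference of 0.70 (SE 0.16, adjusted p = 0.054) did not pass. The 33 bright cytosolic genes had a median difference of 0.0042 after quantile normalisation and of 0.13 as deposited, where all 33 were positive and 0 passed, against 9.24% of all tested genes called (3.07% higher and 6.18% lower). The 281 other bright genes had a median of 0.11 as deposited.

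Mrpl57, a small protein of the large subunit, had 682.4 (4 h) and 646.2 (12 h) at pH 6.4 on TDAG8 arrays, where pH 7.4 gave 450.7 and 405.8. On control arrays pH 6.4 gave 706.2 and 702.1, and pH 7.4 gave 416.2 and 424. The groups did not overlap, and before treatment the lines read 502.2 and 470.6, between the 2 sets of values. The log2 difference was 0.67 (SE 0.11, adjusted p = 0.026), of similar size at both times. Mrps5 of the small subunit, with signals between 109.9 and 184.6, differed by 0.56 (SE 0.11, adjusted p = 0.042). Mrps6, also of the small subunit, had 1228.1 (4 h) and 789.5 (12 h) at pH 6.4 on TDAG8 arrays, where pH 7.4 gave 1560.1 and 1378.1. On control arrays pH 6.4 gave 1062.8 and 695.6, and pH 7.4 gave 1400.4 and 1255. Its log2 difference was -0.68 (SE 0.13, adjusted p = 0.039). As deposited, Mrps5 (adjusted p = 0.074) and Mrps6 (adjusted p = 0.060) no longer passed, while Mrpl18 did (0.66, adjusted p = 0.044). When any of the 4 pairs was left out, 0 of the 4 genes called here passed: the adjusted p of Mrpl57 then lay between 0.085 and 0.097, at differences of 0.65 to 0.70.

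The mitochondrial group as a whole had a median of 0.11, with 49 of 76 genes positive, against -0.0032 over all tested genes. For 19 of the 76 (25%) all 4 signals at pH 6.4, quantile normalised, lay above all 4 at pH 7.4, which held for 12.6% of all genes. For 1 (1.32%) all 4 lay below, which held for 12.4% of all genes.

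The pH response was also read at each time. At 12 h, 23.5% of all tested genes were called (11.2% higher and 12.3% lower at pH 6.4), and of the 76 mitochondrial genes 17 (22.4%) rose and 1 (1.32%) fell. The same counts were found with the values as deposited, where 23.4% of all genes were called (10.1% higher and 13.3% lower). The counts moved with other settings. The mean of all probe sets gave 11 higher and 3 lower, a pseudocount of 32 gave 7 lower, and limma's trended robust fit 8 lower. That pseudocount and the trended robust fit also called more genes over the whole table, as given in the last section. Shares higher and lower over all genes are not given for these settings, so no change of the split is read from them. Of the 41 cytosolic genes tested, Rps25, among the 8 dimmer ones, alone rose (0.67, SE 0.14, adjusted p = 0.039) and 0 fell. These readings come from 1 pair per line, with the spread taken from both lines at both times. With 1 of the 2 pairs at 12 h left out, 0 genes of the whole table passed (3919 without the TDAG8 pair and 3777 without the control pair had an unadjusted p under 0.05 in limma), and with the 12 h arrays fitted alone 2 mitochondrial genes passed as higher (Mrps31 and Mrps34, adjusted p = 0.049 each). Leaving out 1 of 2 pairs makes a small fit, in which a lost call does not show that the difference depended on that pair. The 17 genes that rose had differences of 0.45 to 1.35 in the TDAG8 pair and of 0.53 to 1.43 in the control pair, all positive. They were called on the mean of these 2 pairs, so the shared sign is not separate support. Of the 4 fibroblast markers tested, 2 passed as lower at 12 h: Pdgfra fell by 1.52 and Dcn fell by 1.61. The summed signal of that list lay between 5704.4 and 8879.4 over the arrays; their part in the result was not tested.

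Mrps31 of the small subunit rose the most. It read 373.9 at pH 6.4 and 146.9 at pH 7.4 for 12 h on TDAG8 arrays, and 427.3 and 158.4 on control arrays. At 4 h it read 169.9 and 169.7 on TDAG8 arrays and 197 and 212.9 on control arrays, and before treatment 160.5 and 226.5 in the 2 lines. Only the 2 arrays at pH 6.4 for 12 h were high, and the log2 difference at 12 h was 1.39 (SE 0.11, adjusted p = 0.016), against 0.06 (SE 0.11, adjusted p = 0.76) at 4 h. It was 1.35 in the TDAG8 pair and 1.43 in the control pair at 12 h.

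Mrps34, which the small subunit needs to assemble, read 962.1 at pH 6.4 and 420.9 at pH 7.4 for 12 h on TDAG8 arrays, and 910.9 and 388.5 on control arrays. Its other 6 signals lay between 453.8 and 625.4, so it too was high on those 2 arrays alone. The log2 difference at 12 h was 1.21 (SE 0.12, adjusted p = 0.016). Mrpl11, the stalk-base protein of the mitochondrial large subunit, read 527.7 at pH 6.4 and 290.1 at pH 7.4 for 12 h on TDAG8 arrays and 489.7 and 215.6 on control arrays, with the other 6 arrays between 368.9 and 492. Here the arrays at pH 7.4 for 12 h were the low ones, and the log2 difference was 1.02 (SE 0.15, adjusted p = 0.023). Mrpl47 of the large subunit read 306.8 and 146.5 on TDAG8 arrays and 299.9 and 168.3 on control arrays, a difference of 0.94 (SE 0.13, adjusted p = 0.021). It was high on the 2 arrays at pH 6.4 for 12 h, with the other 6 between 146.6 and 204.9, but with the mean of all its probe sets in place of the brightest the difference was -0.39 (adjusted p = 0.20).

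**Figure D4:**
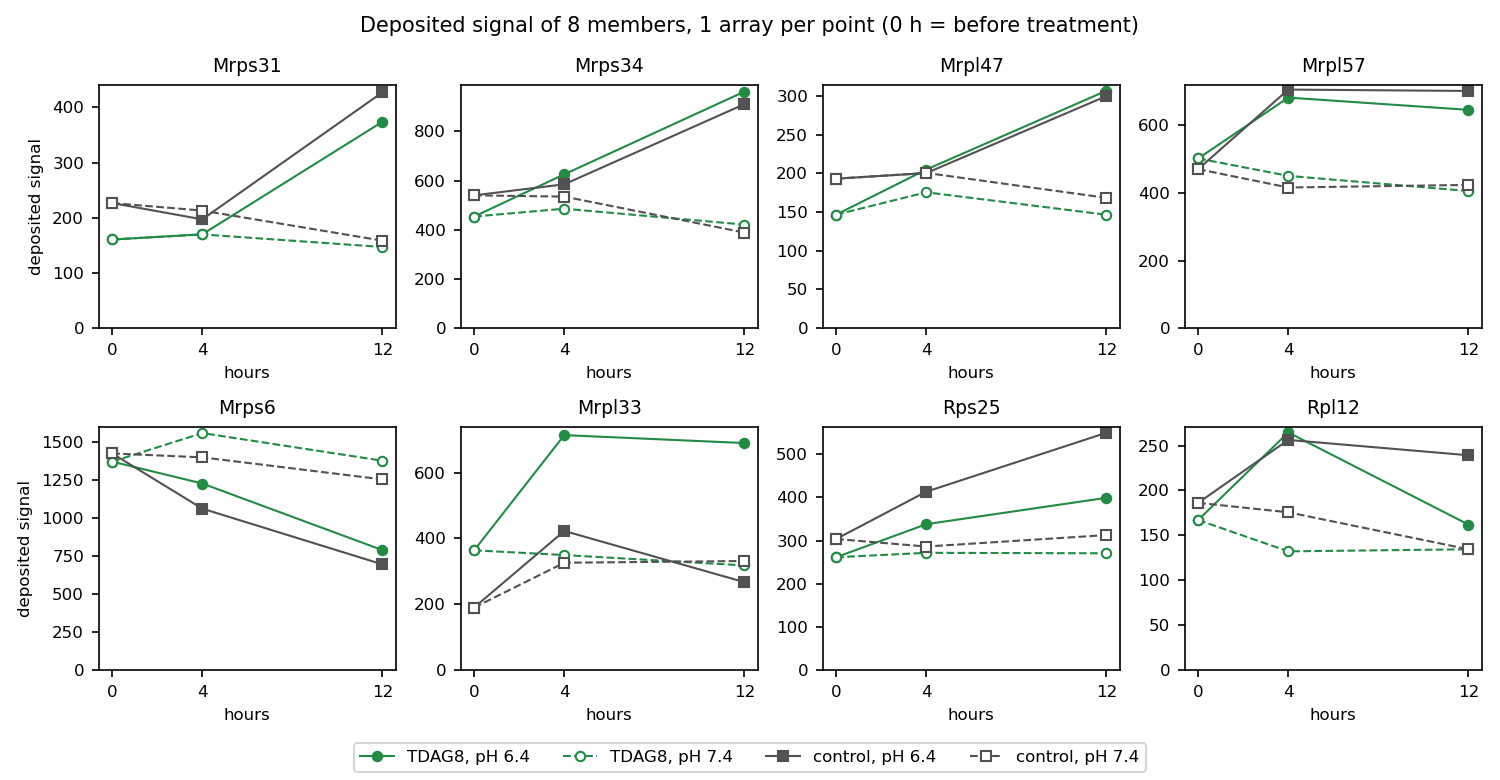
Deposited signal of 8 genes against hours of treatment (0 h is the array before treatment) in the TDAG8 line (circles) and the control line (squares), with filled symbols at pH 6.4 and open symbols at pH 7.4; each point is 1 array and the axes start at 0. Mrps31, Mrps34 and Mrpl47 part by pH more at 12 h than at 4 h, and Mrpl57 and Mrps6 part at both times. None passed at 4 h, and no gene passed the test between the times. Mrpl33 reads 713.7 and 689.6 at pH 6.4 with TDAG8, where control cells have 422.6 and 267.

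The other 13 mitochondrial genes that rose at 12 h did so by 0.51 to 0.90 on the log2 scale. A rise here is against pH 7.4 at the same hour, not against the level before treatment. Against that level, Mrpl32 in the control line differed by 0.74 at pH 6.4 and -0.0056 at pH 7.4 for 12 h. Mrpl46 differed there by -0.02 and -0.58, so its pH 7.4 array was the low one. They were Mrpl12, Mrpl15, Mrpl16, Mrpl18, Mrpl22, Mrpl32, Mrpl46, Mrpl50 and Mrpl57 of the large subunit and Mrps5, Mrps16, Mrps18b and Mrps23 of the small one. Mrps6 fell, by 0.88 (SE 0.10, adjusted p = 0.018). Of the other genes that were lower in both lines, none passed, among them Mrps21 at -0.53 (adjusted p = 0.065), Mrps27 at -0.41 (adjusted p = 0.064) and Mrpl3 at -0.38 (adjusted p = 0.069). By subunit, 11 of 47 large-subunit genes (23.4%) and 6 of 29 small-subunit genes (20.7%) rose. By number, 10 of the 43 genes numbered within the bacterial set and 7 of the 33 numbered beyond it (Mrpl37 and Mrps22 upwards) rose. The rises were thus spread over both subunits and both parts of the numbering, and no difference between these subgroups was tested.

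The mitochondrial genes were also set against the level before treatment. Against the array before treatment, the mitochondrial median at pH 7.4 for 12 h was -0.13 for TDAG8 cells (58 of 76 negative) and -0.24 in the control line, while at pH 6.4 for 12 h it was 0.11 and -0.10. The corresponding medians over all tested genes in the TDAG8 line were 0.01 at pH 7.4 and 0.02 at pH 6.4. Those of the control line are not given here, so its mitochondrial medians are not set against all genes. At pH 6.4 for 12 h, 10 mitochondrial genes lay at least 0.58 above and 5 that far below the array before treatment in the TDAG8 line (13.2% and 6.58%, against 15.2% and 16% of all tested genes), and 6 and 11 in the control line (7.89% and 14.5%, against 14.6% and 17.5%). The 2 arrays at pH 6.4 for 12 h lay above all 8 other arrays for 14 of 76 mitochondrial genes (18.4%) and below all 8 for another 14 (18.4%), against 15.5% and 13.8% of all tested genes. The numbers of high and low mitochondrial genes were thus equal against the other arrays together.

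**Figure D5:**
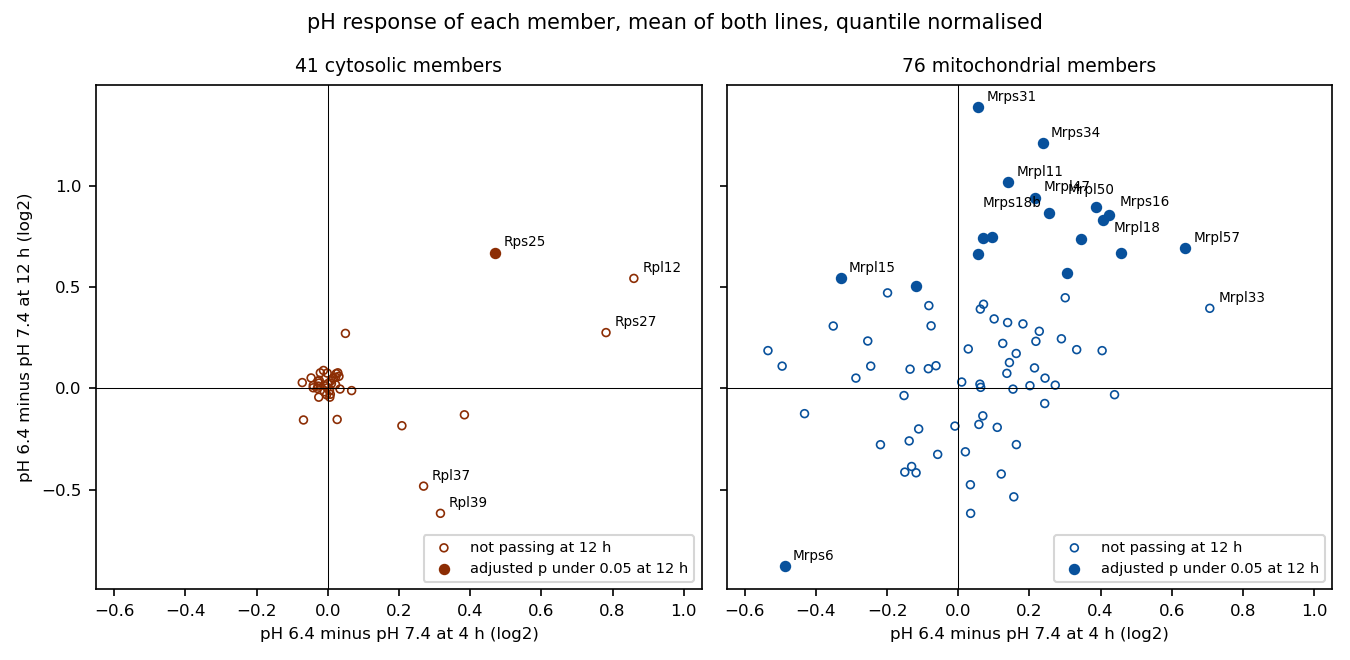
Log2 difference of pH 6.4 minus pH 7.4 at 4 h (x axis) and at 12 h (y axis), averaged over the TDAG8 and control lines after quantile normalisation, for the 41 tested cytosolic genes (left) and the 76 mitochondrial genes (right). Filled circles passed at 12 h: Rps25 among the cytosolic genes, and 17 above and 1 below 0 among the mitochondrial genes. Most cytosolic genes lie near the origin in these values. The bright ones spanned a median of 0.14 over the arrays after this scaling and of 0.63 as deposited.

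At 4 h, 4.81% of all tested genes were called by pH (1.23% higher and 3.59% lower), and 0 of the 117 ribosomal protein genes tested. In limma 2 of 41 cytosolic and 14 of 76 mitochondrial genes had an unadjusted p under 0.05, against 3560 of all 12161. As deposited, 6.89% of all genes (1.27% higher and 5.63% lower) and again 0 of the 117 were called. The mitochondrial median at 4 h was 0.07. Mrpl57 (0.64, SE 0.11, adjusted p = 0.059) and Mrps6 (-0.49, SE 0.10, adjusted p = 0.076) differed in the same direction as at 12 h, without passing. Mrpl15, of the large subunit, went the other way at 4 h in both lines: it read 525.4 at pH 6.4 and 648.6 at pH 7.4 on TDAG8 arrays and 479.9 and 617.7 on control arrays. At 12 h it read 817.6 and 562.1 on TDAG8 arrays and 952 and 629.1 on control arrays. The difference between the pH responses at 12 h and 4 h was 0.88 (SE 0.15, adjusted p = 0.099). No gene of the 12161 passed that test of the difference (3140 had an unadjusted p under 0.05 in limma), Mrps31 included (1.33, SE 0.15, adjusted p = 0.099), so the change of the pH response with time is not established for any single gene here. No gene passed between 12 h and 4 h either (1421 had an unadjusted p under 0.05 in limma). In that comparison the mitochondrial median was -0.08, with 53 of 76 negative.

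The pH response of ribosomal protein genes by line asks whether the receptor altered it. No gene of the table passed (335 had an unadjusted p under 0.05 in limma). The median mitochondrial pH response at 12 h was 0.28 for TDAG8 and 0.07 for control cells, and at 4 h 0.07 and 0.09. The largest single difference in the mitochondrial group was that of Mrpl33, a small large-subunit protein. It read 713.7 at pH 6.4 and 349.4 at pH 7.4 for 4 h, and 689.6 and 317.9 for 12 h, in the TDAG8 line. In the control line it read 422.6 and 326.1 for 4 h, and 267 and 331.3 for 12 h. It was high on the 2 acid arrays of the TDAG8 line, with a difference between the lines of 1.01 (SE 0.36, adjusted p = 1.0), but it also differed before treatment, at 363.8 for TDAG8 and 190 for control cells. Among cytosolic genes, Rps27 had 91.4 (4 h) and 148.1 (12 h) at pH 6.4 on TDAG8 arrays, where pH 7.4 gave 30.9 and 93.8. On control arrays pH 6.4 gave 78.2 and 76, and pH 7.4 gave 92.3 and 87.9. The difference of 1.26 (SE 0.42, adjusted p = 1.0) did not pass. Its paralog Rps27l read between 2209 and 3420.1. As deposited, the bright cytosolic genes had a smaller pH response in the TDAG8 line in all 33 cases, by a median of -0.17. Of them 0 had an unadjusted p under 0.05 in limma, against 309 of all 12159 genes tested. After quantile normalisation their median was -0.0015.

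The probe sets behind the 12 h calls could be compared for 6 of the 18 mitochondrial genes called, which had 10 further probe sets with a mean signal of at least 50. Of these, 9 differed in the same direction as the one used, but several of the 10 belong to the same gene, Mrpl15 or Mrpl11. The exception among the 10 was Mrpl50. Its second probe set read 169.5 at pH 6.4 and 155.9 at pH 7.4 on TDAG8 arrays and 135.8 and 183.6 on control arrays. The one used read 531.6 and 258.2, and 501 and 291.2. Mrpl47 is not among the 6 genes, and its difference turned negative with the mean of all its probe sets, as given above. For Mrpl15, 4 of the 5 such probe sets shared the course given above, and the fifth read 328 at pH 6.4 and 102.3 at pH 7.4 for 4 h on TDAG8 arrays and 459.3 and 133.5 on control arrays.

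Genes that build and serve the ribosomes were looked up in lists for context, at pH 6.4 against pH 7.4 at 12 h. The share called over all tested genes was 11.2% higher and 12.3% lower. Of 32 ribosome biogenesis factors 11 rose and 0 fell, with a list median of 0.34 on the log2 scale against 0.02 over all tested genes. They included Rrp1b (1.67), Nob1 (0.92), which completes the small subunit's RNA, Nolc1 (0.86) and Nop16 (0.76). Of 12 genes for RNA polymerase I and its factors, which make ribosomal RNA, 4 rose and 1 fell: Taf1d rose by 1.85 and Taf1a by 0.82, and Ubtf, which binds the ribosomal DNA, fell by 1.09. Of 19 mitochondrial ribosome assembly factors 5 rose, among them Mrm1 (1.25), a methyltransferase of mitochondrial ribosomal RNA, and Malsu1 (1.19), and 1 fell (Mtg2, -1.03). Of 16 mitochondrial aminoacyl-tRNA synthetases 5 rose and 1 fell (Wars2, -0.99), and of 10 mitochondrial translation factors Tufm rose (0.78) and Mtif2 fell by 0.50.

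The remaining lists are read against the same 11.2% and 12.3%. Of 22 cytosolic translation factors 2 rose (Etf1, 0.67, and Eif4e, 0.51) and 1 fell (Eif5, -1.05). Of 9 ribosomal proteins under other symbols, Rpl22l1 rose (0.64) and Rpl7l1 fell by 0.98. Of 25 regulators of ribosomal protein genes 5 rose and 4 fell. Myc, which activates ribosomal protein and biogenesis genes, rose by 1.40, and Gabpb1, a subunit of an ETS-family factor that acts on genes of mitochondrial proteins, rose by 1.83. Mxd4, an antagonist of Myc, fell by 1.90, and Ddit4, an inhibitor of the growth kinase mTOR, fell by 1.45. The part of these genes in the values of the ribosomal protein genes was not tested.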

How the data were processed

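The deposited values were linear signal intensity per probe set. The arrays share a 2% trimmed mean of 100 by the authors' scaling, which the deposited values show, and the software is not given in the sources used here. Intensities were quantile normalised and logged to base 2 after adding 2.4, their 20th percentile. Of 45101 probe sets, 34945 had 1 symbol. Genes at or above the 40th percentile of probe sets (log2 3.17) were tested with limma 3.58.1 in R 4.3.3 (lmFit, eBayes, Benjamini-Hochberg over 12161 genes). Line was fitted with the condition as a block, pH with line and time, and interactions with 2 residual degrees of freedom. The scripts were tested on simulated data. With pooled cultures and no replicate array, p-values reflect just how far matched pairs of arrays differ. Genes named were, in each group and comparison, the 4 largest passing in each direction, filled up by genes of one sign in every pair (given as not passing where at least 0.25), genes of widest range or extreme signal, those below the filter, paralogs, and up to 4 of each list. Mrpl1, Mrpl15, Mrpl50, the probe sets of Rps9 and Rpl27 and the 13 further genes called at 12 h were named after their values were seen. The members and lists were chosen with earlier results of these data known.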

Additional observations from a re-analysis of the deposited data

Results flagged for a closer look

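For 2 mitochondrial genes the pH response ran one way on both lines' arrays at 4 h and the opposite way at 12 h, by at least 0.15 on the log2 scale on each. For Mrpl15 the response at 12 h minus that at 4 h was 0.88, with -0.33 in each line at 4 h and 0.56 and 0.53 in the TDAG8 and control lines at 12 h; limma's test of this difference gave an adjusted p of 0.099. For Mrpl1, a large-subunit protein with signals between 53.7 and 89.4, it was 0.67, with -0.22 and -0.18 in the TDAG8 and control lines at 4 h and 0.60 and 0.34 at 12 h; limma gave an adjusted p of 0.13. Both differences thus failed the correction. Opposite signs of any size at the 2 times were seen in 14 of 76 mitochondrial and 4 of 41 cytosolic genes. The share over all tested genes was not counted, so neither these counts nor the 2 flagged genes can be set against it.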

How the results depend on the processing

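There was 1 array per line and condition, which limits every count. Of 603 values for named genes under the alternatives, 490 kept direction and side of the threshold, 52 no longer passed, 57 newly passed and 4 changed sign; of 363 counts and medians, 256 stayed within the limits and 107 moved. The causes were not tested. The alternatives that left out the 12 h pairs, fitted the 12 h arrays alone, or left out the line pairs before treatment and at pH 6.4 for 12 h were chosen after seeing the data.

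The line test called 149 genes: 90 with median centring, 263 with the pseudocount at the 40th percentile, 762 with a pseudocount of 32, 9 with no filter, 591 with the filter at the 60th percentile, 75 without probe sets with suffixes, 888 with limma's trended robust fit, 15 with no block, 6 with treated arrays alone, 4 to 28 leaving out 1 pair (6 without the pair before treatment), and 0 without the pairs before treatment and at pH 6.4 for 12 h (1708 at an unadjusted p under 0.05 in limma). The trended robust fit called 3 cytosolic and 6 mitochondrial genes, and the pseudocount of 32 and the 60th percentile filter 3 mitochondrial genes each. Of the calls, 56.4% were higher in the TDAG8 line, 68.2% as deposited and 65.6% with median centring.

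The pH test called 1235 genes: 2250 with the pseudocount of 32, 255 with no filter, 1932 with the 60th percentile filter, 2092 with the trended robust fit, 1885 with no block, 3412 with pH by time in the model, and 0 to 289 leaving out 1 pair. It was 0 without either 12 h pair (2902 without the TDAG8 and 2865 without the control pair at an unadjusted p under 0.05 in limma). Its cytosolic count of 1 was 0 as deposited, with median centring, with no filter and without any 1 pair, and 2 with either pseudocount, the 60th percentile filter, the mean of probe sets, the trended robust fit, no block or pH by time. Its mitochondrial count of 3 was 1 with median centring, 7 and 10 with the 40th percentile and 32 pseudocounts, 0 with no filter, 9 with the 60th percentile filter, 10 with the trended robust fit, 11 with no block, 17 with pH by time and 0 without any 1 pair. Of the calls, 44.5% were higher at pH 6.4, 33.2% as deposited and 32.5% with median centring.

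At 12 h, 2854 genes became 4304 with the pseudocount of 32, 4442 with the trended robust fit, 670 with the 12 h arrays alone, 0 without either pair and 0 with no filter (4790 at an unadjusted p under 0.05 in limma). The cytosolic count of 1 became 2 with the pseudocount of 32 or the mean of probe sets, 4 with the trended robust fit, and 0 with no filter, the 12 h arrays alone or either pair left out. The 17 higher mitochondrial genes became 11 with the mean of probe sets, 10 without suffixes, 2 with the 12 h arrays alone, and 0 with no filter or either pair left out. The 1 lower became 2 and 7 with the 40th percentile and 32 pseudocounts, 7 with the 60th percentile filter, 3 with the mean of probe sets, 8 with the trended robust fit, and 0 with no filter, the 12 h arrays alone or either pair left out. The pH response by time, at 0 genes, became 1557, 1380 and 1841 with the pseudocount of 32, the 60th percentile filter and the trended robust fit, with 11, 8 and 12 mitochondrial genes and, in the trended robust fit, 1 cytosolic gene.

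The cytosolic median log2 difference between the lines, -0.025, was -0.25 as deposited, -0.28 with median centring and -0.080 without suffixes. For pH, 0.0078 became 0.13, 0.17 and 0.052 under these settings and 0.048 as a mean over genes; at 12 h, 0.019 became 0.13, 0.25 and 0.066, and 0.036 without the TDAG8 pair; for time, 0.0073 became 0.054, 0.066 and -0.14. The mitochondrial median at 12 h, 0.15, was 0.31 with median centring, which moved the median of all genes to 0.10. With a limit of 1 in place of 0.58, 4 mitochondrial genes of TDAG8 cells and 1 of control cells differed from before treatment at pH 6.4 for 12 h. In TDAG8 cells Mrps31 (1.23), Mrps34 (1.12) and Mrpl47 (1.06) lay above and Mrpl49 (-1.02) below. In control cells it was Mrps6, which lay below (-1.005). The share over all tested genes was not counted at that limit. The sign turned for Mrpl47 at 12 h (-0.39), and in the pH response by line for Rps6 (0.013) and Mrps11 (-0.0063) with the mean of all probe sets and for Mrpl11 (0.024) without suffixes. The labels give no replicate numbers, so the only pairs are arrays matched by condition, line or time, as in the fits with a block above.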
